A study of Mus musculus with 25 samples.

Results

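The genes described here are 10 genes of cardiac muscle measured in mouse lung: Nppa, Mb, Myh6, Tnnt2, Tnni3, Actc1, Myl7, Ryr2, Sln and Smpx. They were taken by symbol, as the probe sets annotated to one of these symbols alone, and make up 10 of the 18193 genes on the array with a single symbol. The symbols were chosen with earlier results of these data known. A count of them set beside the share of all genes is therefore a description and no test of the set. They have 16 such probe sets between them. Each gene was read from its brightest probe set on average, and all 10 genes passed the filter on low values (above the array's median in at least 4 arrays), for 8 of them in all 25 arrays, for Ryr2 in 24 and for Smpx in 21. Of the 6 other probe sets of the members, 1 passed the filter and 5 did not. Another 2 probe sets carry the symbols Myh6 and Myh7 together and were not used.

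The study measured lung RNA of female mice on Affymetrix mouse 430 2.0 arrays and asked how the lack of FP, the receptor for prostaglandin F, encoded by Ptgfr, bears on lung fibrosis after bleomycin. WT mice and FP-KO mice had bleomycin instilled into the trachea on Day 0 at 1 mg/kg in 40 µl saline, and their lungs were taken on Day 0 (baseline), Day 7 or Day 14. The groups hold 4 mice each, apart from WT Day 14 with 5, so that 13 WT and 12 FP-KO arrays enter. Strain, age, how FP-KO was made and how each lung was dissected and freed of heart, vessels and mediastinal tissue are not stated in the labels, and no group without bleomycin on Day 7 or Day 14 is described in the labels. Each array is 1 mouse as titled, and the number of arrays limits the precision.

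Cardiac muscle contracts when calcium, released from the sarcoplasmic reticulum through the ryanodine receptor, binds the troponin complex on the actin thin filament and lets myosin of the thick filament pull on it. In mice, lung tissue normally holds cardiac muscle, because a sleeve of atrial-type heart muscle runs from the left atrium along the pulmonary veins into the lung. Whole-lung RNA therefore carries transcripts of heart muscle, in an amount that also depends on which part of the veins and of neighbouring tissue is taken with the lung.

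The start regions of members with a motif of muscle genes are shown because the members' values moved together. RefSeq (GRCm38.p6) promoter windows, 250 bases before to 50 after a start, were found for 9 of the 10 genes (12 windows), with no entry for Sln. The CArG box, the site named for serum response factor, was in 1.63% of all 32851 windows and in those of Actc1 and Myl7. The GATA-type motif TGATAA was in 9.05% of all windows and in those of Nppa and Myl7, and AAGTG, the core of the site named for Nkx2-5, was in 46.4% of all windows and in those of Nppa, Mb, Myh6 and Myl7. AGATAA was in 11.2% of all windows and in those of Tnnt2 and Smpx, TATAAA was in 13.6% and in those of Nppa, Myh6 and Actc1, and the MEF2 site, in 3.19% of all windows, matched none of the 9 genes. Both strands were searched, AAGTG and TATAAA are short and common, and a match is only a match of letters. The 130 bases before the start are given 5′ to 3′ on the gene's strand, with the CArG box in capitals in Actc1 (chr2:114052876-114053005, minus strand), the CArG box and TGATAA in capitals in Myl7 (chr11:5898783-5898912, minus strand), and TGATAA and AAGTG in capitals in Nppa (chr4:148000592-148000721, plus strand). The CArG box began 47 bases before the annotated start in Actc1 and 61 bases before it in Myl7. TATAAA began 33 bases after the annotated start in Actc1, 1 base after it in Myh6 and 9 bases before it in Nppa. Where transcription starts in lung was not tested.
Actc1: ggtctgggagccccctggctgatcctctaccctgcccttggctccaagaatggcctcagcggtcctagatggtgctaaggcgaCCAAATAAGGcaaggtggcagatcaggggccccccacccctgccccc
Myl7: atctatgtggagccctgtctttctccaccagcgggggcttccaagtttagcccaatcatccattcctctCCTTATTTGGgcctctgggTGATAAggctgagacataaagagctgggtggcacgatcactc
Nppa: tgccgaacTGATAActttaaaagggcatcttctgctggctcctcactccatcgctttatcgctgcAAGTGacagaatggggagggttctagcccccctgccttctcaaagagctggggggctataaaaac

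Several arrays stood apart from the rest of their group. Ptgfr had an intensity of 122.6 to 383.7 in the WT arrays and 21.1 to 57.6 in the FP-KO arrays, in accord with the titles, although where its probe set lies relative to the deletion is unknown here. On the first principal component of the tested genes (42.0% of the variance) the array FP-KO Day 14 No. 2 lay at -28.9, within the range of the Day 0 arrays (-35.0 to -24.8), whereas the other 3 mice of that group lay at -5.37 to 1.44 and the WT Day 14 arrays at 13.4 to 25.6. On the second component (16.9%) the Day 14 arrays WT No. 1 to 3 and FP-KO No. 1 and 2 lay at 27.7 to 30.1, and the Day 14 arrays WT No. 4 and 5 and FP-KO No. 3 and 4 at -2.28 to 1.35. The Day 14 arrays thus fell into 2 sets that each hold both genotypes, and the labels name no batch. On Day 0, the summed intensity of 7 skeletal muscle genes was 1916 to 5804 in WT No. 1 and 3 and FP-KO No. 1, against 439.6 to 1066 in the other 22 arrays. Results on the 10 genes, and totals and selected counts of the other gene lists, are given with all arrays and again without the arrays that stood apart.

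In WT lung the cardiac muscle genes fell after bleomycin, and all 10 were lower on Day 14, against 19.5% of the 12062 genes tested. The mean intensity on Day 14 ran from 21.3% (Nppa) to 56.7% (Actc1) of the Day 0 mean, with a median over the genes of 35.4%. On Day 7 the means already lay at 36.0% (Mb) to 71.7% (Tnnt2) of Day 0, and 9 of the 10 genes had fallen, against 18.0% of all genes. In FP-KO lung none of the 10 passed the test on either day. Of all genes, 10.7% passed as lower on Day 7 and 1.41% on Day 14, so that none of 10 is near those shares. On Day 7 the FP-KO means lay at 58.5% (Mb) to 118% (Nppa) of the FP-KO Day 0 mean, with a median of 75.0%. On Day 14 they lay at 77.9% (Myl7) to 111% (Mb) of it. On Day 14, 9 of the 10 genes were higher in FP-KO than in WT lung, against 4.89% of all genes, with means at 140% (Tnnt2, which did not pass) to 282% (Nppa) of WT. FP-KO lung also had lower means on Day 0, at 62.6% (Mb) to 92.8% (Actc1) of WT Day 0, a difference that passed for none of the genes (0.00829% of all genes passed as lower). In bulk lung RNA, fewer cardiac muscle cells and less of these RNAs per cell cannot be told apart. Values are also scaled per array. More RNA from other cells, or less vein tissue in the sample, cannot be told apart from these either.

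**Figure D1:**
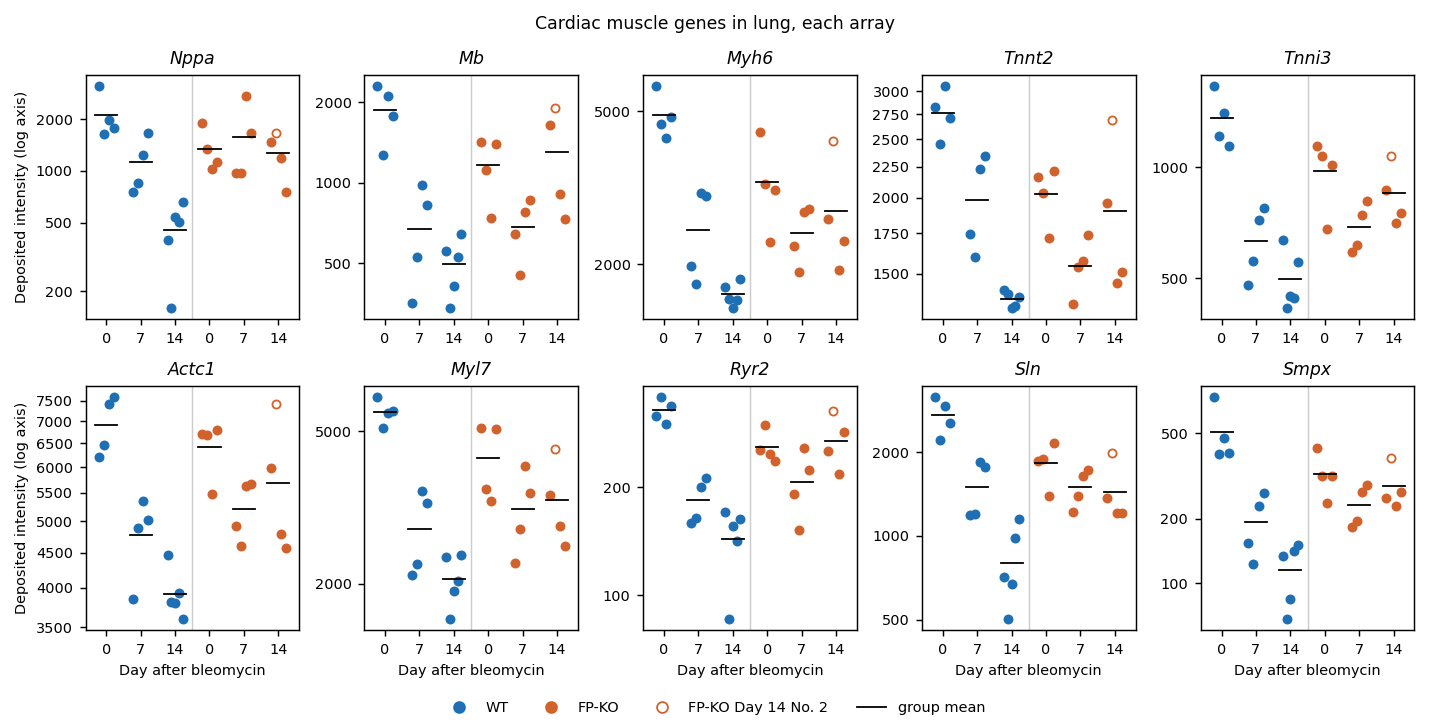
Deposited intensity (log axis, 1 panel per gene with its own scale) of the 10 cardiac muscle genes in each array, by day after bleomycin, WT in blue and FP-KO in orange, with the group mean as a bar. The WT means step down from Day 0 to Day 7 and to Day 14 in all 10 panels, the FP-KO Day 14 means lie at 77.9% to 111% of FP-KO Day 0, and the open circle, FP-KO Day 14 No. 2, is the highest FP-KO point on Day 14 in all 10 panels.

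Nppa encodes atrial natriuretic peptide, a hormone made in atrial muscle. Its intensity was 3131, 1633, 1970 and 1772 in the WT Day 0 arrays, 758, 852, 1237 and 1654 on Day 7, and 397, 160, 542, 504 and 659 on Day 14. Every WT Day 14 value was below every WT Day 0 and Day 7 value, while Day 7 and Day 0 overlapped. The log2 change was -0.91 ± 0.38 (SE) on Day 7, which did not pass (adjusted p = 0.0643), and -2.34 ± 0.36 on Day 14 (adjusted p = 2.63e-05, limma, Benjamini-Hochberg over the 12062 genes tested, as for all adjusted p-values here). In FP-KO lung it was 1890, 1333, 1027 and 1122 on Day 0, 978, 969, 2710.4 and 1659 on Day 7, and 1478, 1671, 1192 and 758 on Day 14. Nppa had the widest spread between mice of the 10 genes, with a within-group SD of 0.58 (log2) against a median of 0.196 over all tested genes, and the 3 FP-KO groups overlapped. On Day 14 the lowest FP-KO value, 758, was above the highest WT value, 659, and the log2 difference between the genotypes was 1.59 ± 0.36 (adjusted p = 0.0073).

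Mb encodes myoglobin, the oxygen-binding protein of heart and slow skeletal muscle. WT lung had 2310, 1277, 2105 and 1784 on Day 0, 355, 529, 981 and 829.6 on Day 7, and 557, 341, 413, 527 and 642 on Day 14. All WT values of both later days were below all those of Day 0, with log2 changes of -1.52 ± 0.32 on Day 7 (adjusted p = 0.000801) and -1.95 ± 0.30 on Day 14 (adjusted p = 3.48e-05). FP-KO lung had 1428, 1117, 741 and 1393 on Day 0, 645, 453, 776 and 865 on Day 7, and 1653, 1907, 909 and 734 on Day 14. The FP-KO values were lower on Day 7, with 2 of the 4 arrays above the lowest Day 0 array and a change of -0.72 ± 0.32 that did not pass (adjusted p = 0.109), and on Day 14 they lay on both sides of the Day 0 values (0.10 ± 0.32, adjusted p = 0.904). All 4 FP-KO Day 14 values were above all 5 of WT, by 1.36 ± 0.30 (adjusted p = 0.0073).

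The thick filament is represented by Myh6, the alpha myosin heavy chain, and Myl7, the atrial regulatory light chain. Myh6 was at 5831, 4636, 4263 and 4826 in WT on Day 0 and at 1747, 1629.5, 1540.3, 1614 and 1829 on Day 14, with 1778 to 3063 on Day 7. It was at 4420, 3241, 2290 and 3124 in FP-KO on Day 0 and at 2625, 4181, 1934 and 2306 on Day 14, with 1913 to 2787 on Day 7. The WT Day 14 values lay close together and below every other array apart from 1 WT Day 7 array, whose 1778 fell within their range. The log2 change in WT was -1.04 ± 0.22 on Day 7 (adjusted p = 0.000784) and -1.55 ± 0.21 on Day 14 (adjusted p = 5.75e-06), and that in FP-KO on Day 14 was -0.25 ± 0.22 (adjusted p = 0.577). The FP-KO Day 14 arrays were above the WT ones by 0.70 ± 0.21 (adjusted p = 0.0338). Myl7 had means of 5631 ± 433 (SD, n = 4), 2779 ± 701 (n = 4) and 2060 ± 318 (n = 5) in WT on Day 0, 7 and 14, and 4251 ± 973, 3137 ± 778 and 3311 ± 870 (n = 4 each) in FP-KO. Its WT Day 14 arrays (1618 to 2378) lay below all its FP-KO Day 14 arrays (2507 to 4491), and its Day 14 change was -1.48 ± 0.20 in WT (adjusted p = 6.98e-06) and -0.35 ± 0.21 in FP-KO, which did not pass (adjusted p = 0.38). The genotype difference of Myl7 on Day 14 was 0.69 ± 0.20 (adjusted p = 0.0291).

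The thin filament is represented by Actc1, cardiac alpha-actin, and by Tnnt2 and Tnni3, the cardiac forms of the troponin subunits that hold the complex on tropomyosin and inhibit contraction at rest. Tnni3 had means of 1355 ± 232, 633 ± 138 and 499 ± 92.3 in WT on Day 0, 7 and 14, and of 975 ± 205, 690.2 ± 105 and 849 ± 164 in FP-KO. Its WT log2 changes, -1.08 ± 0.18 on Day 7 (adjusted p = 7.9e-05) and -1.47 ± 0.17 on Day 14 (adjusted p = 1.29e-06), had the lowest adjusted p-values among the 10 genes on both days. Tnnt2 was at 2828, 2458, 3064 and 2706 in WT on Day 0 and at 1409, 1391, 1317, 1326 and 1373 on Day 14. The 5 WT Day 14 mice had nearly the same Tnnt2 level, while the 4 FP-KO Day 14 mice ranged from 1446 to 2694, and the genotype difference of 0.47 ± 0.15 just missed the threshold (adjusted p = 0.0505). A further Tnnt2 probe set passed the filter and gave similar values, -1.18 for WT Day 14 against Day 0 (adjusted p = 9.92e-06) and 0.52 for FP-KO against WT on Day 14 (adjusted p = 0.0507). Another Tnnt2 probe set, below the filter at 19.1 to 167.3, had means of 132 in WT on Day 0 and 43.7 on Day 14. In FP-KO its means were 101 and 60.5, and FP-KO Day 14 No. 2 was the lowest of its group there (35.4). Actc1 had the smallest WT change of the 10 genes on Day 14. Its WT means were 6919.9 ± 697, 4779 ± 649 and 3921 ± 323 on the 3 days and its FP-KO means 6419 ± 623, 5204 ± 532 and 5692 ± 1305. Its WT change was -0.57 ± 0.15 on Day 7 (adjusted p = 0.00521) and -0.81 ± 0.14 on Day 14 (adjusted p = 0.000124). Its genotype difference on Day 14 was 0.52 ± 0.14 (adjusted p = 0.0237), with arrays of both genotypes overlapping after normalization although the deposited intensities did not (3599 to 4457 in WT, 4577 to 7417 in FP-KO).

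Ryr2 is the cardiac ryanodine receptor, through which calcium leaves the sarcoplasmic reticulum, and Sln encodes sarcolipin, an inhibitor of the calcium pump found in atrial and some skeletal muscle. Ryr2 was at 315, 358, 299.9 and 337 in WT on Day 0, at 159, 164, 200.3 and 212 on Day 7, and at 171, 85.9, 156, 142 and 163 on Day 14. In FP-KO it was at 255, 298, 247 and 237 on Day 0, at 192, 152, 258 and 223 on Day 7, and at 252, 325, 217 and 285 on Day 14. The FP-KO Day 14 values covered the FP-KO Day 0 range, and all were above all WT Day 14 values, by 0.86 ± 0.15, with the lowest adjusted p of the 10 genes in that comparison (0.00186). The WT changes were -0.83 ± 0.16 (Day 7, adjusted p = 0.000335) and -1.19 ± 0.15 (Day 14, adjusted p = 3.06e-06). Sln had means of 2709.9 ± 419, 1499.9 ± 352 and 802 ± 258 in WT and 1823 ± 316, 1494 ± 232 and 1439 ± 372 in FP-KO. Its WT change was -0.85 ± 0.23 on Day 7 (adjusted p = 0.00583) and -1.84 ± 0.22 on Day 14 (adjusted p = 1.47e-06). Sln differed between the genotypes on Day 14 by 0.91 ± 0.22 (adjusted p = 0.0106).

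Smpx encodes a small protein of striated muscle that lies at the costamere, where the contractile apparatus is anchored to the membrane. Its intensity was 740, 402, 472 and 405 in WT on Day 0, 154, 124, 229 and 264 on Day 7, and 134, 68.1, 84.1, 142 and 151 on Day 14. In FP-KO it was 425, 314, 238 and 316 on Day 0, 182, 195, 267 and 285 on Day 7, and 251, 384, 228 and 266 on Day 14. WT values did not overlap between Day 0 and either later day, and WT Day 14 lay below all FP-KO arrays. The WT change of Smpx was -1.39 ± 0.26 on Day 7 (adjusted p = 0.000221) and -2.09 ± 0.24 on Day 14 (adjusted p = 1.31e-06), and FP-KO was above WT on Day 14 by 1.23 ± 0.24 (adjusted p = 0.00383).

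As a group, the 10 genes had a median change in WT of -0.98 on Day 7 and -1.52 on Day 14, against -0.01 for all genes on both days. In 9 of the 10 genes on Day 7 and all 10 on Day 14 every WT array was below every WT Day 0 array, which held, in that direction, for 17.8% and 13.7% of all genes. On Day 7, 9 of the 10 FP-KO changes were below zero, from -0.72 (Mb) to 0.16 (Nppa) with a median of -0.40 and adjusted p-values from 0.0775 to 0.796, and 5 had an unadjusted p below the 0.05 used as the threshold, as had 36.7% of all genes, in either direction. Tnni3 passed there without FP-KO Day 0 No. 3 (-0.61) and Myl7 without FP-KO Day 7 No. 3 (-0.62). On Day 14 the FP-KO changes ran from -0.36 (Sln) to 0.10 (Mb) with a median of -0.20 and adjusted p-values from 0.38 to 0.92, and none had an unadjusted p below the threshold.

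**Figure D2:**
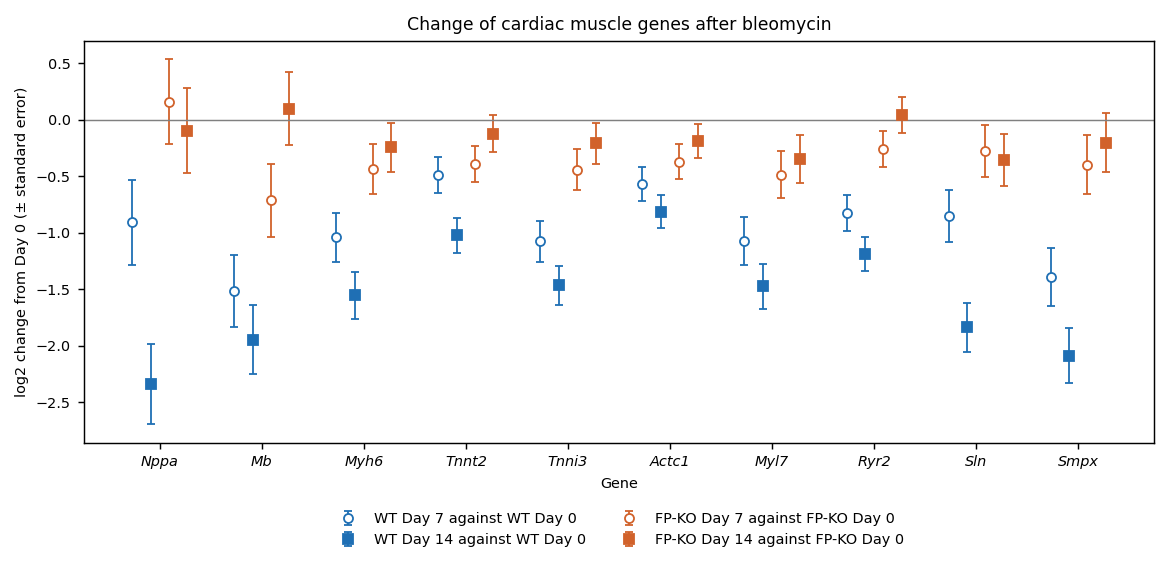
Log2 change from Day 0 with its standard error for each gene (x axis), WT in blue and FP-KO in orange, Day 7 as open circles and Day 14 as filled squares. The WT Day 14 changes run from -2.34 for Nppa to -0.81 for Actc1, and the FP-KO Day 14 changes from -0.36 to 0.10.

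Whether the change over time differed between the genotypes was tested by the interaction term, the FP-KO change minus the WT change. For Day 14 it passed for 9 of the 10 genes, against 1.28% of all genes in that direction, with values from 0.62 (Actc1, adjusted p = 0.092, not passed) to 2.24 (Nppa, adjusted p = 0.0252) and a median of 1.28 against 0.01 for all genes. Ryr2 had the lowest adjusted p (0.00982) at 1.23 ± 0.22. Without WT Day 0 No. 1 the Day 14 interaction passed for 5 genes, no longer for Nppa (2.05), Myh6 (1.23), Tnnt2 (0.90) and Myl7 (1.09), against 0.515% of 12033 genes in that direction. For Day 7 it passed for no member and, in the same limma fit, for 0 of all genes (765, or 6.34%, had an unadjusted p below the threshold); the members' values were all above zero, from 0.10 to 1.07, and 3 had an unadjusted p below the threshold.

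The Day 14 interaction is the sum of differences at both ends. On Day 0 all 10 genes had a lower value in FP-KO than in WT, by -0.69 (Mb) to -0.10 (Actc1) with a median of -0.52, where 0.00829% of all genes passed as lower and none of the 10 did (adjusted p = 1 for each, 7 with an unadjusted p below the threshold, against 3.34% of all genes in either direction). In Myh6 and Tnnt2 every FP-KO Day 0 array was below every WT Day 0 array, as in 1.15% of all genes. On Day 7 the genotype differences ran from -0.34 (Tnnt2) to 0.42 (Nppa) with a median of 0.14, and none passed (adjusted p from 0.672 to 0.998, 1 with an unadjusted p below the threshold, against 7.27% of all genes in either direction), where 0.00829% of all genes passed as higher and the same share as lower. On Day 14 the differences ran from 0.47 to 1.59 with a median of 0.82. In 9 of the 10 genes all FP-KO arrays were above all WT arrays after normalization, against 5.26% of all genes. These comparisons share arrays: the Day 14 genotype difference enters the Day 14 interaction, and they are no independent evidence of each other.

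FP-KO Day 14 No. 2, the array that lay among the Day 0 arrays on the first component, was the highest of its group in 10 of 10 genes. Without it the Day 14 genotype difference passed for 4 of the 10 genes, against 1.59% of 12039 genes tested in that direction: Nppa (1.44, adjusted p = 0.0444), Tnni3 (0.67, adjusted p = 0.0437), Ryr2 (0.79, adjusted p = 0.0128) and Smpx (1.09, adjusted p = 0.027). Mb, Myh6, Actc1, Myl7 and Sln no longer passed, with 1.13, 0.46, 0.38, 0.52 and 0.74 (adjusted p from 0.0511 for Mb to 0.192 for Myh6), and Tnnt2 was at 0.27 (adjusted p = 0.262). All 10 differences stayed above zero, with a median of 0.70, and in all 10 genes the deposited intensity of each of the other 3 FP-KO Day 14 arrays was above that of every WT Day 14 array, as in 6.14% of all genes. The Day 14 interaction without it passed for 5 genes, Mb (1.82), Tnni3 (1.15), Ryr2 (1.16), Sln (1.31) and Smpx (1.75), against 0.424% of all genes, with values over the 10 from 0.48 to 2.09 and a median of 1.15. The FP-KO change from Day 0 to Day 14 without it passed for none of the 10, against 1.54% of all genes that passed as lower, and lay between -0.54 (Sln) and -0.03 (Ryr2), all 10 below zero.

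The genotype difference was seen in both sets of Day 14 mice, at different sizes. In the set of WT No. 1 to 3 and FP-KO No. 1 and 2 the FP-KO mean was higher for all 10 genes, by 0.74 (Actc1) to 2.29 (Nppa) with a median of 1.07, and by a median of 0.86 with FP-KO No. 1 alone. In the set of WT No. 4 and 5 and FP-KO No. 3 and 4 it was higher for all 10, by 0.14 (Tnnt2) to 0.72 (Smpx) with a median of 0.41. In neither set did FP-KO and WT arrays overlap in any of the 10 genes; all FP-KO arrays were above all WT arrays in 24.0% of all genes in the former set and in 22.6% in the latter. The mean intensity of Sln was 628 in WT and 1675 in FP-KO in the former set, and 1063 in WT and 1203 in FP-KO in the latter. The sets were read from the arrays, hold 2 or 3 mice per genotype, and their values are given with no test.

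**Figure D3:**
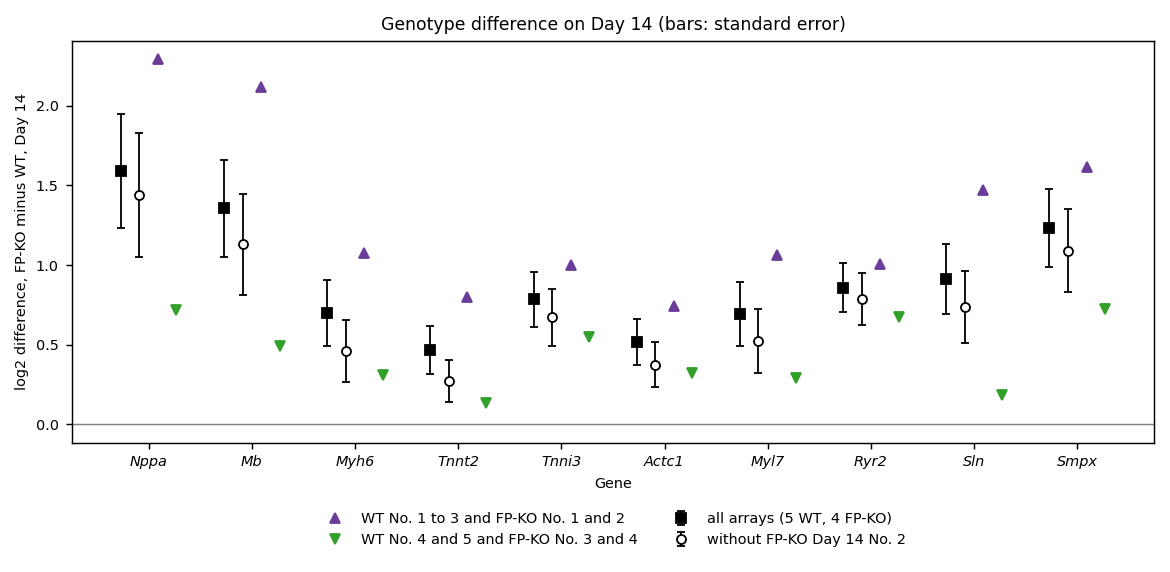
Log2 difference between FP-KO and WT on Day 14 for each gene (x axis): all arrays (black squares) and without FP-KO No. 2 (open circles), both with the standard error, and the means within the set of WT No. 1 to 3 and FP-KO No. 1 and 2 (upward triangles) and within the set of WT No. 4 and 5 and FP-KO No. 3 and 4 (downward triangles). All points lie above zero, the upward triangles from 0.74 to 2.29 and the downward ones from 0.14 to 0.72.

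Within a group, the members tended to be high or low in the same mice. WT Day 0 No. 1 was the highest of its group in 7 genes and FP-KO Day 0 No. 3 the lowest of its group in 9. On Day 7 the WT highs all lay in No. 3 and 4 (5 genes each) and the WT lows in No. 1 and 2 (7 and 3), while the FP-KO highs lay in No. 3 and 4 (3 and 7) and the lows in No. 1 and 2 (5 each). WT Day 14 No. 2 was the lowest in 7 genes, FP-KO Day 14 No. 3 and 4 in 5 each. The summed intensity of the 10 genes ran from 25759 to 32344 in WT on Day 0, from 12783 to 19362 on Day 7 and from 10023 to 12571 on Day 14. In FP-KO it ran from 17104 to 25391, from 14557 to 20391 and from 14898 to 26129. The WT Day 0 sums were all above every FP-KO Day 0 sum, and the WT Day 14 sums all below every FP-KO sum of any day.

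Genes outside the 10 were ranked by how closely their deviations from the group means followed the mean deviation of the 10, over the 25 arrays. The closest were Casq2, the calcium-binding protein of the cardiac sarcoplasmic reticulum (Pearson r = 0.897), Ckmt2, the mitochondrial creatine kinase of muscle (0.856), Actn2, the Z-disc actinin (0.840), Myl4, the atrial essential light chain (0.834), Hrc (0.811), Myom2 (0.810), Tnnc1, the calcium-binding troponin subunit (0.803), and Phlpp1, a phosphatase (0.790). For the members, which are part of that mean, r ran from 0.61 (Ryr2) to 0.93 (Mb and Myl7). With members counted, Ryr2 had rank 203 and Actc1 rank 77 of the 12062 genes, so many other genes followed the mean more closely than these. The points share array-wide effects such as the Day 14 sets, and r is a description. Of the top 50 genes of this ranking, 12 were in the lists of cardiac and muscle genes given below. All 8 genes named fell in WT on Day 14, from -0.68 (Phlpp1) to -1.77 (Ckmt2), against 19.5% of all genes. None of the 8 passed in FP-KO on Day 14, which is near the 1.41% of all genes that passed there as lower.

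Other muscle genes were counted by list. Over all genes tested, 18.0% fell in WT on Day 7 and 19.5% on Day 14. In FP-KO 10.7% fell on Day 7 and 1.41% on Day 14. On Day 14, 4.89% were higher in FP-KO than in WT, and 1.59% without FP-KO Day 14 No. 2. Without the 3 Day 0 arrays of high skeletal signal, 12.3% fell in WT on Day 7 and 12.7% on Day 14. Of 14 tested genes of the sarcomere and Z-disc, 10 had fallen in WT on Day 14, with a median of -0.96 against -0.01 for all genes, among them Ttn, the giant spring protein (-1.88), Csrp3 (-1.86), Tcap (-1.54) and Myom2 (-1.50). On Day 7, 9 had fallen and 1 had risen, Ankrd1 (1.15), a stress-responsive gene that is also active outside muscle. In FP-KO none passed on Day 14, and 5 were higher in FP-KO than WT on Day 14 (Csrp3 0.89, Ttn 0.85, Myoz2 0.65, Tnnc1 0.60 and Nebl 0.33). Without FP-KO Day 14 No. 2 none of the 14 passed in that genotype difference (median 0.29 against 0.40 with it). Without the 3 Day 0 arrays of high skeletal signal the same 10 fell in WT on Day 14, and 5 rather than 9 fell on Day 7. In FP-KO on Day 7, Ttn (-0.65), Tnnc1 (-0.52) and Nebl (-0.41) fell and Ankrd1 rose (0.79), and without those 3 arrays Nebl was the one that fell. All 7 tested genes of muscle energy metabolism fell in WT on both days, with a median of -1.41 on Day 14, led by Cox8b (-2.95), a cytochrome oxidase subunit of heart and brown fat, Ckmt2 (-1.77), Cox7a1 (-1.41) and Ckm (-1.41). None of them passed in FP-KO on Day 14, and 4 were higher in FP-KO than WT on that day (Cox8b 1.40, Ckmt2 0.99, Cox7a1 0.66 and Eno3 0.46). Without FP-KO Day 14 No. 2, Cox8b alone passed there (1.38, adjusted p = 0.0309). Eno3 was the one of the 7 that fell in FP-KO on Day 7 (-0.56). Without the 3 Day 0 arrays, 6 of the 7 fell in WT on Day 14, not Ckm, and 5 on Day 7.

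Of 7 tested genes of cardiac calcium and ion handling, 4 fell in WT on Day 14: Pln, the phospholamban that restrains the calcium pump (-1.31), Casq2 (-1.14), Srl (-0.98) and Hrc (-0.93). Cacna1c, a calcium channel also made in smooth muscle, rose (0.47), no longer without the 3 Day 0 arrays of high skeletal signal, and none of the 7 differed between the genotypes on Day 14. Myl4 was the one atrial list gene of 6 with a probe set that passed the filter; its WT change on Day 14 was -0.89 (adjusted p = 1.51e-05), and it was higher in FP-KO than in WT by 0.69 (adjusted p = 0.00285); its FP-KO change of 0.04 did not pass. Without FP-KO Day 14 No. 2 the genotype difference of Myl4 was 0.56 (adjusted p = 0.0205). Of the ventricular and slow muscle genes, Myh7 (-0.69) and Myl3 (-0.80) fell in WT on Day 14, Myl3 no longer without the 3 Day 0 arrays of high skeletal signal, and neither differed between the genotypes on that day; Myh7 also fell in FP-KO on Day 7 (-0.85). Myl2, the ventricular regulatory light chain, did not pass the filter; it was at 6.6 to 157.7 and under the floor of 24.3 in 7 of 25 arrays. Irx4, a ventricular transcription factor, was under the floor in 23 arrays. Of the cardiac transcription factors, Tbx5 and Mef2c passed the filter and neither changed past the threshold with all arrays (Tbx5 fell in WT on Day 14 without FP-KO Day 14 No. 2 or without the 3 Day 0 arrays), while Nkx2-5 (43.7 to 128.3), Gata4, Tbx20 and Hand2 did not pass it.

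The content of other tissues was read from marker lists. Of 20 skeletal muscle genes, 7 passed the filter. Their summed intensity was 5804, 513, 1916 and 453 in the WT Day 0 arrays, 439.6 to 2198 in FP-KO on Day 0, 478 to 696 in WT on Day 14 and 487 to 783 in FP-KO on Day 14. Acta1, the skeletal actin, was at 1426 and 580.2 in WT Day 0 No. 1 and 3 and 819 in FP-KO Day 0 No. 1, and at 11.2 to 289.9 in the other arrays. The skeletal signal was thus high in some mice of both genotypes on Day 0 and low in the others. The summed intensity of the 10 cardiac genes was 25759 and 28784 in WT Day 0 No. 2 and 4, with low skeletal signal. It was 32344 and 29498 in WT Day 0 No. 1 and 3, with high skeletal signal. Nppa, Mb, Tnnt2, Tnni3, Sln and Smpx were higher in both No. 1 and 3 than in No. 2 and 4. Ryr2 was lower in both, and Myh6, Actc1 and Myl7 lay in mixed order. How far skeletal muscle had a part in these values was not tested. In WT on Day 14, Myh1, Mylpf and Atp2a1 fell (-2.35, -1.62 and -1.11), Mybpc2 rose (1.54), and none of the 7 differed between the genotypes. Of these, Myh1 no longer passed without FP-KO Day 14 No. 2, and without the 3 Day 0 arrays 3 of the 7 passed the filter and Mybpc2 alone changed in WT on Day 14. Without the 3 arrays of high skeletal signal, a choice made after seeing the data, all 10 cardiac genes fell in WT on Day 14 (-2.06 to -0.81, median -1.44, against 12.7% of all genes), 7 fell on Day 7 (12.3%), and 9 were higher in FP-KO on Day 14 (4.77%). The Day 14 interaction then passed for Ryr2 alone (1.37, adjusted p = 0.0446), at values from 0.62 to 2.14 with a median of 1.34, where 0.100% of 11998 genes passed as higher.

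**Figure D4:**
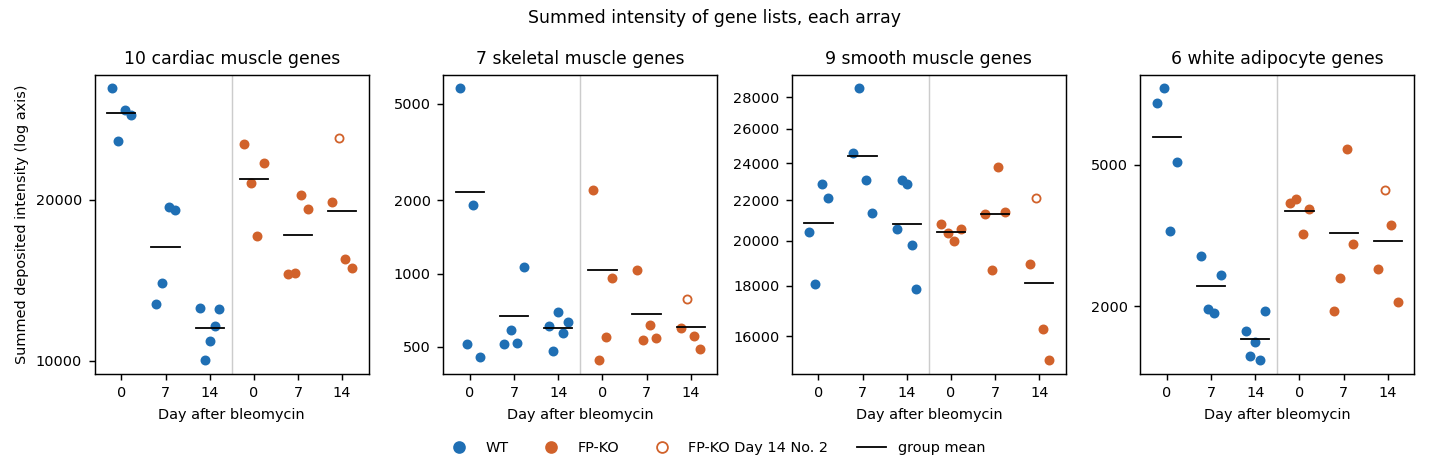
Summed deposited intensity (log axis, own scale in each panel) of the 10 cardiac muscle genes, 7 skeletal muscle genes, 9 smooth muscle genes and 6 white adipocyte genes in each array, by day and genotype, with the group mean as a bar. The cardiac and adipocyte sums are lowest in WT on Day 14, the skeletal sum stands out in 3 Day 0 arrays, and the smooth muscle sum lies between 15124 and 28608 throughout.

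White adipocyte genes moved in the same direction as the cardiac genes in the group means, but not always from mouse to mouse. Within WT Day 0, No. 2 had the highest adipocyte sum (8190.4) and the lowest cardiac sum (25759). No. 3 had the lowest adipocyte sum (3261) at a cardiac sum of 29498. Within FP-KO Day 14, No. 2 was highest in both (4240.1 and 26129). Of 6 tested, 5 fell in WT on Day 14 (median -2.00), among them Adipoq, which encodes adiponectin (-2.56), Thrsp (-2.37), Pck1 (-2.16) and Retn (-1.83). None passed in FP-KO on either day, and Thrsp, Adipoq and Retn were higher in FP-KO than WT on Day 14 (1.53, 1.08 and 0.91). Without FP-KO Day 14 No. 2 none of the 6 passed in that genotype difference (median 0.83 against 0.99 with it), and without the 3 Day 0 arrays of high skeletal signal the same 5 fell in WT on Day 14. Their summed intensity was 3261 to 8190.4 in WT on Day 0, 1414 to 1939 in WT on Day 14 and 2061 to 4240.1 in FP-KO on Day 14. The brown adipocyte genes that passed the filter, Cidea and Ppargc1a, also fell in WT on Day 14 (-1.70 and -0.43), Ppargc1a no longer without those 3 arrays. Fat lies around the heart base and in the mediastinum but also along airways, and how far tissue taken with the lung had a part in the cardiac results was not tested.

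Smooth muscle, by contrast, gave sums of 18062 to 22830.1 on Day 0 and 17858 to 23043 on Day 14 in WT. Of 9 tested genes, Smtn rose (0.61) and Synpo2 and Cnn1 fell (-0.84 and -0.32) in WT on Day 14, with a list median of -0.04. None differed between the genotypes on that day. The 2 of 9 that fell are near the share of all genes that did (19.5%). On Day 7, 2 of the 9 had fallen in WT (list median 0.23) and 1 in FP-KO (list median -0.01). Without FP-KO Day 14 No. 2, Actg2 was lower in FP-KO than in WT on Day 14 (-0.41, adjusted p = 0.0478), and without the 3 Day 0 arrays Cnn1 no longer fell. Of 10 lung epithelial and endothelial markers, all above the filter, Sftpb rose (0.27) and Cldn5 and Hopx fell (-0.42 and -0.32) in WT on Day 14. The list median was -0.03, and the 2 of 10 that fell are again near 19.5%. On Day 7, 4 of the 10 fell in WT (median -0.30, against 18.0% of all genes). In FP-KO 3 fell on Day 7 (median -0.23, against 10.7% of all genes). The sum of the 10 markers was 171112 to 215839 in WT on Day 0 and 154402 to 177638 on Day 14. It was 176477 to 239316 in FP-KO on Day 14. Hopx was the one that was higher in FP-KO than in WT on Day 14 (0.24), but not without FP-KO Day 14 No. 2 (0.20, adjusted p = 0.112), and without the 3 Day 0 arrays neither Sftpb nor Cldn5 passed in WT on Day 14. The thymocyte genes Rag1, Rag2, Dntt and Ptcra did not pass the filter. Of the erythroid genes 2 were tested, neither passed on Day 14, and 1 fell in WT on Day 7. Over the 69 tested list genes, 0 passed in FP-KO on Day 14, and 1 rose and 1 fell without FP-KO Day 14 No. 2. In FP-KO on Day 7, 9 fell, and 11 without that array. The Day 14 interaction passed as higher for 11 (1.28% of all genes). It passed for 3 without that array (0.424%) and for 0 of 64 without the 3 Day 0 arrays (0.100%).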

How the data were processed

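Lung RNA of 25 mice was measured, per the labels' protocols, with total RNA taken by Sepasol and biotinylated cRNA made from 6 µg. The deposited series table covers 45101 probe sets with linear intensities between 0 and 51673.8. Each array's trimmed mean (2% left out at each end) is 500, so the authors scaled the arrays to it; the labels name no software for this. Array medians ran from 112.3 to 151.5.

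Intensities were floored at 24.3, the 20th percentile, taken to log2 and quantile-normalized, since the array medians differed by 0.43 (limit 0.3). Control probe sets (64), those with several symbols (932) and those without one (9160) were left out. Each of 18193 genes was read from its brightest probe set on average, and the 12062 genes that exceeded the array's median in 4 or more arrays were tested. Tests used limma 3.58.1 in R 4.3.3 (lmFit on 6 group means, 9 contrasts, eBayes) with Benjamini-Hochberg adjustment over all genes tested and a threshold of 0.05; the script was tested on simulated data. Group values are deposited intensities, as mean ± SD. Promoter windows are RefSeq's.

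The genes named are the 10 members, Ptgfr, up to 4 genes with the largest passed change from each of 13 lists and contrast, and the 8 genes most like the members; further list genes, named for a count of 5 or fewer or for their level, were chosen after their values were seen. Members and lists were chosen with earlier results of these data known. Alternatives were other normalizations, floors, filters, probe set rules and eBayes settings, array weights, a block for the mouse number, each array left out in turn and, added after seeing the data, 3 Day 0 arrays left out. Figures were drawn with matplotlib.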

Additional observations from a re-analysis of the deposited data

Results flagged for a closer look

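The Day 14 interaction, the FP-KO change from Day 0 minus the WT change, passed for 9 of the 10 genes by the test of the difference itself (limma, Benjamini-Hochberg): Nppa 2.24, Mb 2.04, Smpx 1.89, Sln 1.48, Myh6 1.31, Tnni3 1.26, Ryr2 1.23, Myl7 1.13 and Tnnt2 0.90 on the log2 scale. In that fit 1.28% of all genes passed as higher. The interaction passed for 5 of the 10 without FP-KO Day 14 No. 2, against 0.424% of all genes. Without the 3 Day 0 arrays of high skeletal muscle signal it passed for 1, against 0.100% of all genes.

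The Actc1 intensity of 5487 in FP-KO Day 0 No. 3 lay apart from the other 3 arrays of its group, which ran from 6685 to 6795; the gap was 0.916 of the group's range, above Dixon's 95% critical value for 4 samples. The same array was the lowest of its group in 9 of the 10 genes. Among the 60 combinations of gene and group looked at, chance gives about 3 such cases.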

How the results depend on the processing

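The fall in WT on Day 14 passed for all 10 genes under every alternative run, leaving out each array included, except that Ryr2 was not tested with the mean of all probe sets. With each array left out in turn, the number of the 10 genes that passed was 8 to 10 for WT Day 7, 10 for WT Day 14, 0 to 1 for FP-KO Day 7, 0 for FP-KO Day 14, 4 to 10 for FP-KO against WT on Day 14 and 5 to 9 for the Day 14 interaction, both lowest without FP-KO Day 14 No. 2 and the interaction also at 5 without WT Day 0 No. 1. Over all genes, those counts were 3540 to 4025 (WT Day 7), 3830 to 4930 (WT Day 14), 1858 to 3135 (FP-KO Day 7), 105 to 570 (FP-KO Day 14), 2 to 2 (Day 0 genotype), 2 to 3 (Day 7 genotype), 391 to 1545 (Day 14 genotype), 0 to 1 (Day 7 interaction) and 123 to 612 (Day 14 interaction).

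Under array weights, 1 gene fell in FP-KO on Day 7 (Tnnt2), and Myh6 (0.48) and Actc1 (0.31) no longer passed in the Day 14 genotype difference. Counts over all genes were then 726 (FP-KO Day 14), 2858 (Day 14 genotype) and 1006 (Day 14 interaction). With the arrays set to a common median they were 166, 767 and 167; of the 767, 217 were higher and 550 lower in FP-KO, against 590 and 680 after quantile normalization, and 7 of the 10 genes passed there, without Myh6 and Myl7. With the mean of all probe sets, 9 of the 10 genes passed the filter (not Ryr2), 1 fell in FP-KO on Day 7 (Tnnt2), 7 passed in the Day 14 genotype difference and 6 in the Day 14 interaction, and 4 genes in all differed on Day 0. A filter on 13 arrays left 0 genes for the genotype on Day 0 and on Day 7 (limma; 403 and 877 had an unadjusted p under 0.05 with the filter on 4 arrays), a floor at the 30th percentile gave 1 for the Day 7 interaction, and no filter gave 196 for the Day 14 interaction. With no filter, Myh6 and Myl7 no longer passed in the Day 14 genotype difference, nor Nppa, Tnnt2 and Myl7 in the Day 14 interaction. Without the 3 Day 0 arrays of high skeletal signal, counts over all genes were 2982 (WT Day 14), 249 (FP-KO Day 14), 4 (Day 0 genotype) and 20 (Day 14 interaction, 1 of the 10 genes). That fit has fewer samples; the cause of the other shifts was not tested.

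Signs turned only where no change passed. With each array left out in turn, the FP-KO change on Day 7 ran from -0.14 (without FP-KO Day 7 No. 3) to 0.34 for Nppa. The FP-KO change on Day 14 ran from -0.25 to 0.13 for Nppa, above zero without FP-KO Day 0 No. 1 or Day 14 No. 4. It ran from -0.13 to 0.34 for Mb, below zero without FP-KO Day 0 No. 3, Day 14 No. 1 or Day 14 No. 2. It ran from -0.031 to 0.13 for Ryr2, below zero without FP-KO Day 0 No. 4 or Day 14 No. 2, and from -0.32 to 0.00095 (without FP-KO Day 14 No. 3) for Tnnt2. Under other alternatives the Day 14 change was 0.077 for Nppa without the 3 Day 0 arrays, -0.19 for Mb under array weights and 0.13 for Myh6 with the mean of all probe sets.

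Mice of both genotypes share numbers 1 to 4. For Day 0 mice the deviations of same-numbered arrays correlated between 0.12 and 0.34, and for Day 7 mice between 0.14 and 0.22; on Day 14 they correlated at 0.19 to 0.44 for No. 1, 2 and 4 and at -0.31 for No. 3. On Day 14, WT and FP-KO mice of No. 1, 2 and 4 lay in the same set of Day 14 arrays, and those of No. 3 in different sets. How far the sets bear on these correlations was not tested. The labels name no litter or day behind a number. For 7 of 12 FP-KO arrays the best correlation was with the WT array of their own number. That is a hint from the data, which the Day 14 sets may share in, and it does not settle whether the numbers pair the mice. With the mouse number as a replicate block, 590 genes passed in the Day 14 interaction, 9 of the 10 genes among them. In the Day 14 genotype difference 8 of the 10 passed, Actc1 (adjusted p = 0.0556) no longer. This block gives each number the same effect on all days, although every array is another mouse. The number 5 occurs in WT on Day 14 alone, so that array does not inform the block fit. Pairing of mice within a day was therefore not tested by it. Signal limits Ryr2 and Smpx most, since they lay below the array median in 1 and 4 arrays.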
